A study of Mus with 8 samples.

Results

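The genes described here encode the subunits of voltage-gated calcium channels and the channels of the TRPC, TRPM and TRPV families, in uterine RNA from pseudopregnant mice. Members were the rows of the deposited count table whose symbol starts with Cacna, Cacnb or Cacng, or with Trpc, Trpm or Trpv followed by a digit. This gave 48 of 31269 rows, of which 26 were calcium channel subunit rows and 22 were TRP rows. A filter on low counts kept 37 of the 48 members and 17629 rows in all, and every test over all 8 libraries covers those rows unless another filter is named. The rule uses symbols and no measured value, and it also takes in Trpc4ap, which encodes a protein that binds a TRPC channel and is not a channel itself.

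Voltage-gated calcium channels open when the membrane depolarizes. The pore subunit (Cacna1 genes) sets the channel type, the alpha2delta subunits (Cacna2d genes) and beta subunits (Cacnb genes) carry the pore to the surface and tune its opening, and the gamma family (Cacng genes) includes both channel partners and regulators of glutamate receptors. In uterine smooth muscle, L-type channels carry most of the calcium that drives each contraction, and T-type channels open at lower voltages. TRP channels are cation channels opened by lipids, heat, stretch, calcium or steroids rather than mainly by voltage, and some take up calcium or magnesium across epithelia.

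Whole-gene read counts were measured in 8 libraries of mouse uterus at pseudopregnancy day 6, a progesterone-dominated state with no embryos. Per the labels, 4 libraries came from uteri with PGR deficiency in the myometrium, the muscle wall, and 4 came from controls. PGR is the progesterone receptor. The sources used here give no allele, Cre driver, strain or age, and do not say whether each library came from its own animal, so p-values measure the spread between libraries. The labels place the tissue around implantation sites, although pseudopregnancy has none.

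Pgr, the targeted gene, stood at 187, 184, 177 and 159.7 CPM (counts scaled to library size by the TMM method) in libraries 1 to 4 labelled deficient, against 131, 180.0, 144 and 171 CPM in control libraries 1 to 4. The groups overlapped, and the labelled deficient mean was the higher. On the log2 scale, deficient over control, it differed by 0.18 ± 0.11 (SE), with an adjusted p of 0.338 in edgeR; all log2 differences below run the same way. Counts over the whole gene and all cell types do not isolate muscle, so the group is called deficient below by its label alone, and each direction rests on that label. Total counts ran from 71377993 to 72364750 in the deficient libraries and from 70296369 to 71303026 in the control libraries. The members took 90886 to 119156 of those reads in the deficient libraries and 96142 to 109295 in the controls. Smooth muscle markers were all detected (9 of 9 tested, 3 at an unadjusted p under 0.05), and their summed level ran from 4196 to 4898 CPM in deficient libraries and from 4245 to 6352 CPM in controls. Epithelial markers (8 of 8 tested) and stromal markers (7 of 7 tested) were present in every library as well, so the RNA came from more than muscle. In such tissue, fewer cells of a type and less RNA per cell cannot be told apart. The stromal sum ran from 7050 to 8451 CPM in deficient libraries and from 5383 to 6937 CPM in controls, with no overlap. Of the 7 stromal markers, 3 had an unadjusted p under 0.05 in edgeR, beside 24.8% of all genes. Col1a1 and Col3a1 were higher in deficient libraries and Hand2 was lower. The part of stromal content in the channel differences was not tested. Deficient libraries 2 and 3 had the highest epithelial sums, 2578 and 1852 CPM, against 1244 and 1248 CPM in deficient libraries 1 and 4 and 1077 to 1378 CPM in the controls. Of the 8 epithelial markers, Krt8, Krt19, Epcam, Cdh1 and Cldn7 were higher in deficient libraries 2 and 3 than in the other deficient libraries, while Cldn3 was lower there, at 130.0 and 106 CPM against 220.5 and 152 CPM. Summed endothelial markers (5 of 5 tested) were lowest in the same libraries, at 527 and 612 CPM. Their sums were 976 and 891 CPM in deficient libraries 1 and 4 and 786 to 954 CPM in the controls. Pecam1, Cdh5, Tek and Emcn were each lowest in deficient libraries 2 and 3. Kdr was at 102 and 96.5 CPM there, against 96.9 to 117 CPM in the controls.

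No channel gene passed the test across all genes. With edgeR's quasi-likelihood test and Benjamini-Hochberg adjustment, 0 of 37 members had an adjusted p under 0.05, as did 0.00% of all genes tested. At an unadjusted p under 0.05 there were 12 members, or 32.4%, against 24.8% of all genes. Of these, 4 were higher in deficient libraries (Cacna1g, Cacna2d3, Cacna2d4 and Trpv4), where 13.0% of all genes were higher at that threshold. The other 8 were lower (Cacna1a, Cacna1d, Cacna1e, Cacnb1, Cacnb2, Trpc1, Trpm3 and Trpm7), where 11.8% of all genes were lower. DESeq2 called 6 of 37 members at an adjusted p under 0.05, against 14.2% of all genes. It called Cacna1g, Cacna2d3 and Trpv4 higher, beside 7.43% of all genes, and Cacna1e, Cacnb2 and Trpc1 lower, beside 6.72%. Limma-voom called 0 members. With 37 members, 6 calls stood close to the share of all genes that DESeq2 called.

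All 4 deficient libraries lay below all 4 controls for 5 members, Cacna1d, Cacna1e, Cacnb2, Trpc1 and Trpm3, beside 8.66% of all genes. All 4 deficient libraries lay above all 4 controls for 0 members, beside 7.61% of all genes. The median log2 difference was -0.11 over the 37 members and 0.01 over all genes. Among the members, 15 differences were positive and 22 negative, and over all genes 9159 were positive and 8470 negative. The calcium channel subunits leaned lower, with 14 of 20 differences negative and a median of -0.20, while the TRP rows were split, with 9 positive and 8 negative. The lean of the subunits was weaker without deficient libraries 2 and 3. There Cacna1h, Cacna2d1, Cacnb4 and Cacng7 turned positive, at 0.03, 0.02, 0.01 and 0.08, and Cacna2d3 alone turned negative, at -0.03.

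**Figure D1:**
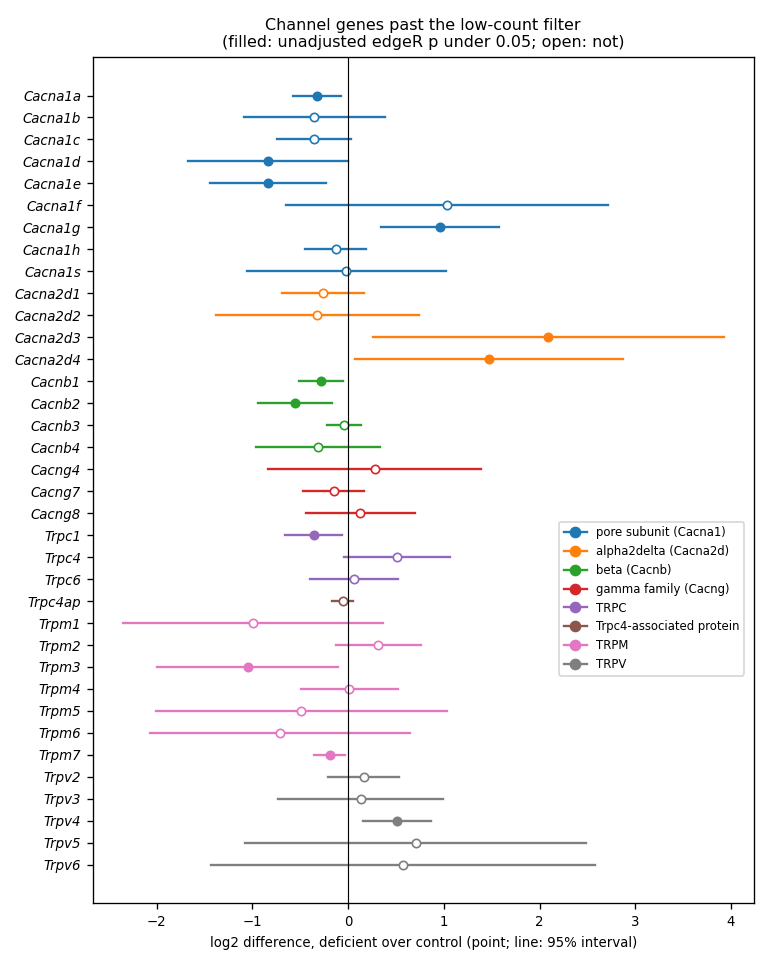
Log2 difference of deficient over control (horizontal axis, log2 units) for 36 of the 37 channel genes past the low-count filter, grouped by role. Points are edgeR estimates, lines are 95% intervals and filled points mark an unadjusted p under 0.05; 4 filled points lie right of 0 and 8 lie left of it, and the intervals are widest for Cacna1f, Cacna2d3, Trpv5 and Trpv6.

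Among the L-type pore genes, Cacna1d was lower in each deficient library than in any control, and Cacna1c was lower on average with overlap. Cacna1d encodes an L-type pore known from heart pacemaker, endocrine and nerve cells. The gene spans 30039941 to 30491156 of chromosome 14 (build GRCm38.p6, as for all positions here). CPM values were 66.7, 19.8, 45.1 and 79.7 in deficient libraries 1 to 4, against 109.8, 87.4, 86.1 and 94.7 in control libraries 1 to 4. Deficient library 2 was the lowest and deficient library 4 the nearest to the controls. The log2 difference was -0.84 ± 0.36 (SE), with an unadjusted p of 0.0489 and an adjusted p of 0.199 in edgeR, and 0.102 in DESeq2. Cacna1c, the main L-type pore of smooth muscle and whose channel lets in most of the calcium that drives contraction, is on chromosome 6 from 118587240 to 119197384. It stood at 90.6, 79.5, 115 and 89.4 CPM in deficient libraries and 105, 105, 109 and 160.2 CPM in controls. Control library 4 was far above every other library, and deficient library 3 exceeded 3 of the controls. The difference of -0.36 ± 0.17 (SE, log2) had an unadjusted p of 0.0643 in edgeR and an adjusted p of 0.226, and without control library 4 it was -0.19.

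Cacna1e and Cacna1a, pores of the R type and P/Q type best known from nerve terminals and endocrine cells, also had lower deficient means. Cacna1e, on chromosome 1 from 154390806 to 154884785, measured 11.8, 5.24, 9.65 and 12.2 CPM in deficient libraries, against 22.2, 15.4, 16.2 and 15.7 CPM in controls. Each deficient library lay below every control, with deficient library 2 the lowest and control library 1 the highest. Its log2 difference was -0.84 ± 0.26 (SE), with an adjusted p of 0.122 in edgeR and 0.025 in DESeq2. Cacna1a measured 41.4, 29.8, 35.3 and 38.5 CPM in deficient libraries and 45.2, 41.0, 49.7 and 45.3 CPM in controls. The groups met only where deficient library 1 edged past control library 2. Its log2 difference was -0.32 ± 0.11 (SE), with an unadjusted p of 0.0182 and an adjusted p of 0.137 in edgeR. Summed nerve and Schwann cell markers were also lower in deficient libraries, at 11.9 to 13.3 CPM against 13.6 to 15.5 CPM in controls. Of those 8 markers, 6 were tested, 2 had an unadjusted p under 0.05, and the neuronal genes Tubb3 and Snap25 stayed under the filter, at no more than 10 reads in any library. The part of nerve tissue in the Cacna1a and Cacna1e differences was not tested.

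The T-type gene Cacna1g had the smallest p of any channel gene and was higher in deficient libraries. It is on chromosome 11 from 94408391 to 94474400. Its level was 198, 248, 219 and 121 CPM in deficient libraries, against 99.6, 145, 89.3 and 70.6 CPM in controls. Deficient libraries 1 to 3 exceeded all controls, and deficient library 4 was below control library 2. The means were 197 ± 54.1 CPM in deficient libraries and 101 ± 31.6 CPM in controls (SD, n = 4 each), and the ratio fitted by edgeR was 1.94-fold. In edgeR the log2 difference was 0.96 ± 0.27 (SE), with an adjusted p of 0.106, and in DESeq2 the adjusted p was 0.00936. Cacna1h, a second T-type pore found in smooth muscle, averaged 68.9 ± 9.36 CPM in deficient libraries and 75.3 ± 12.9 CPM in controls (SD, n = 4 each). Its difference of -0.13 ± 0.14 (SE, log2) did not pass the edgeR test, at an adjusted p of 0.585, and its 95% interval ran from -0.45 to 0.19. Of the 9 tested pore genes, 1 was higher and 3 were lower at an unadjusted p under 0.05. Cacna1b, Cacna1f and Cacna1s, the pores of nerve terminals, retina and skeletal muscle, stayed under 1 CPM in every library.

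Of the 4 alpha2delta genes, 2 were higher in deficient libraries at an unadjusted p under 0.05, and both rested on deficient library 2 or on libraries 2 and 3. Cacna2d3, on chromosome 14 from 28904943 to 29722775, measured 2.57, 29.7, 15.5 and 3.27 CPM in deficient libraries, against 1.53, 4.36, 4.04 and 2.04 CPM in controls. Deficient libraries 2 and 3 stood far above the rest, and deficient libraries 1 and 4 lay inside the control range. Its log2 difference of 2.09 ± 0.80 (SE), the largest of the 37 tested members, had an adjusted p of 0.162 in edgeR and 0.0305 in DESeq2. Without deficient libraries 2 and 3 it was -0.03. Cacna2d4, which lies next to Cacna1c with a gap of 39.1 kb and no gene between, measured 1.01, 3.75, 1.29 and 0.876 CPM in deficient libraries, against 0.551, 0.55, 0.233 and 1.16 CPM in controls. Deficient library 2 was well above the other 7 libraries, which overlapped. Its log2 difference was 1.47 ± 0.61 (SE), with an adjusted p of 0.185 in edgeR, and 0.60 without deficient libraries 2 and 3. Cacna2d1, the alpha2delta subunit of smooth and striated muscle and a binding site of gabapentin, averaged 56.3 ± 14.7 CPM in deficient libraries and 67.4 ± 7.41 CPM in controls (SD, n = 4 each), a log2 difference of -0.26 ± 0.19 (SE) with an adjusted p of 0.408 in edgeR.

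All 4 beta subunit genes had lower deficient means, and 2 of them, Cacnb2 and Cacnb1, reached an unadjusted p under 0.05. Cacnb2, a beta subunit that partners L-type pores in heart and smooth muscle, lies on chromosome 2 from 14603861 to 14988811. It measured 25.8, 23.2, 32.8 and 32.2 CPM in deficient libraries, against 43.8, 37.1, 33.6 and 52.8 CPM in controls. The groups did not overlap, though deficient library 3 and control library 3 almost met. Cacnb2 differed by -0.56 ± 0.17 (SE, log2), with an adjusted p of 0.116 in edgeR and 0.0279 in DESeq2. Cacnb1, the beta subunit of the skeletal muscle channel, measured 31.8, 29.7, 33.6 and 39.99 CPM in deficient libraries, against 43.6, 41.4, 38.0 and 41.3 CPM in controls. Deficient library 4 passed control library 3, and the other deficient libraries lay below all controls. Its log2 difference was -0.28 ± 0.10 (SE), with an adjusted p of 0.145 in edgeR. Skeletal muscle markers summed to 51.4 to 68.7 CPM in deficient libraries and 74.3 to 109.9 CPM in controls, with 4 of 6 tested. Most of that sum was Acta1, and the defining markers Myh1 and Myh4 had at most 1 read in any library. Cacnb3, a beta subunit of smooth muscle and many other cells, averaged 75.5 ± 3.27 CPM in deficient libraries and 77.7 ± 7.23 CPM in controls (SD, n = 4 each), and the 95% interval of its log2 difference ran from -0.22 to 0.13. Cacnb4, a beta subunit of the cerebellum, averaged 3.96 ± 1.59 and 4.93 ± 0.489 CPM in deficient and control libraries, a log2 difference of -0.32 ± 0.28 (SE).

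The summed smooth muscle markers were 4196, 4682, 4898 and 4471 CPM in deficient libraries and 4245, 6003, 5091 and 6352 CPM in controls. They were highest in control libraries 4 and 2. Among controls, Cacna1c was highest in libraries 4 and 3, Cacnb2 in libraries 4 and 1 and Cacna1d in libraries 1 and 4. The muscle sum, Cacna1c and Cacnb2 thus shared control library 4 as the highest. The part of muscle content in the Cacna1c, Cacna1d and Cacnb2 differences was not tested.

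Of the 8 gamma family rows, 3 were tested and 0 reached an unadjusted p under 0.05. Cacng4, Cacng7 and Cacng8, which regulate AMPA-type glutamate receptors in brain, had log2 differences of 0.28 ± 0.49, -0.15 ± 0.14 and 0.13 ± 0.25 (SE). Cacng7 averaged 32.6 ± 6.68 CPM in deficient libraries and 36.2 ± 0.943 CPM in controls (SD, n = 4 each), with controls tightly grouped and deficient libraries 2 and 3 the lowest of the 8. Cacng4 and Cacng8 stayed under 5 CPM in every library.

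**Figure D2:**
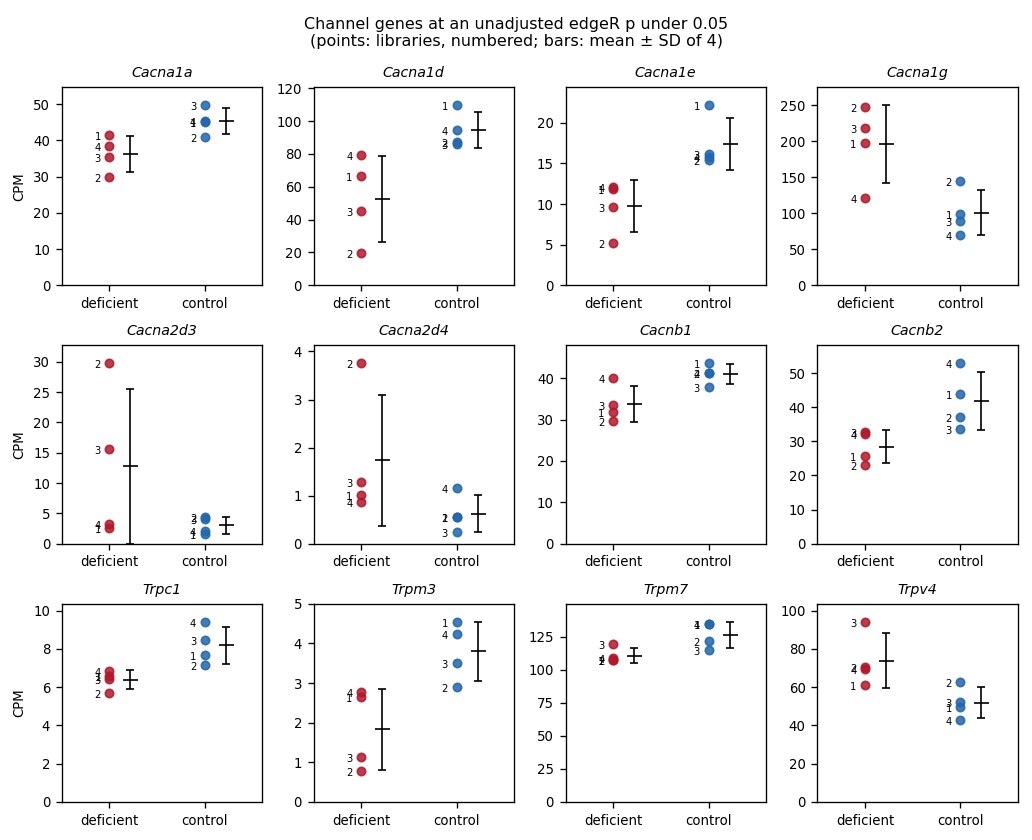
CPM (vertical axis, starting at 0) of the 12 channel genes at an unadjusted edgeR p under 0.05 in the 4 deficient libraries (left, red) and the 4 control libraries (right, blue). Points are numbered libraries and bars are mean ± SD; Cacna2d3 and Cacna2d4 are highest in deficient library 2, and Cacna1e, Cacnb2, Trpc1, Trpm3 and Cacna1d show no overlap.

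Among the TRPC genes, whose channels open after phospholipase C is activated by receptors, Trpc1 was lower in every deficient library. Trpc1, on chromosome 9 from 95705072 to 95750386, measured 6.59, 5.70, 6.41 and 6.85 CPM in deficient libraries, against 7.70, 7.17, 8.46 and 9.42 CPM in controls. The values were tight within each group and did not overlap. The log2 difference was -0.36 ± 0.13 (SE), with an adjusted p of 0.151 in edgeR and 0.0391 in DESeq2. Trpc4, a receptor-operated channel of smooth muscle and endothelium, measured 22.2, 44.0, 39.1 and 27.3 CPM in deficient libraries and 18.8, 23.7, 20.2 and 30.6 CPM in controls. Deficient libraries 2 and 3 exceeded every control, and deficient libraries 1 and 4 lay within it. Its log2 difference of 0.51 ± 0.24 (SE) had an unadjusted p of 0.0671 in edgeR and an adjusted p of 0.23, and it was 0.09 without deficient libraries 2 and 3. Trpc6, a channel opened by diacylglycerol and present in uterine and vascular muscle, averaged 5.49 ± 1.25 CPM in deficient libraries and 5.27 ± 0.821 CPM in controls (SD, n = 4 each). Its log2 difference was 0.06 ± 0.20 (SE), with an adjusted p of 0.87 in edgeR. Trpc4ap was nearly the same in all 8 libraries, at 191 ± 3.16 CPM in deficient libraries and 199 ± 5.06 CPM in controls (SD, n = 4 each).

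Of the 7 tested TRPM genes, Trpm3 and Trpm7 were lower in deficient libraries at an unadjusted p under 0.05 and 0 were higher. Trpm3 encodes a channel opened by heat and by the steroid pregnenolone sulfate. Its level was 2.65, 0.771, 1.13 and 2.76 CPM in deficient libraries, against 4.55, 2.91, 3.50 and 4.23 CPM in controls. All deficient libraries were lower than all controls, and deficient libraries 2 and 3 were the lowest. The log2 difference was -1.05 ± 0.41 (SE), with an adjusted p of 0.171 in edgeR and 0.0787 in DESeq2, and -0.48 without deficient libraries 2 and 3. Trpm7, a channel fused to a kinase that carries magnesium and zinc into most cells, measured 107, 107, 119 and 109 CPM in deficient libraries and 134, 121, 115 and 135 CPM in controls. Deficient library 3 was above control library 3, and otherwise the groups were apart. Its log2 difference of -0.19 ± 0.07 (SE) had an adjusted p of 0.156 in edgeR. Trpm1, best known from the retina, stayed under 2 CPM in every library, with a log2 difference of -0.99 ± 0.59 (SE) and an adjusted p of 0.322 in edgeR. It ran from -0.66 without deficient library 2 to -1.67 without deficient library 4, where its unadjusted p in edgeR was 0.0156 and DESeq2 called it lower.

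Of the TRPV genes, Trpv4 was higher in deficient libraries. Trpv4, a channel opened by cell swelling, warmth and stretch, lies on chromosome 5 from 114622152 to 114658435. It measured 61.3, 70.7, 94.2 and 69.4 CPM in deficient libraries, against 49.7, 62.6, 52.0 and 42.9 CPM in controls. Only deficient library 1 and control library 2 crossed, and deficient library 3 was the highest. Trpv4 differed by 0.51 ± 0.16 (SE, log2), a 1.43-fold ratio, with an adjusted p of 0.116 in edgeR and 0.0274 in DESeq2. Without deficient libraries 2 and 3 it was 0.34, with an unadjusted p of 0.0516 in edgeR. Trpv2, a channel of muscle and immune cells, had a log2 difference of 0.16 ± 0.16 (SE) and an adjusted p of 0.549 in edgeR.

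The 4 deficient libraries were split widely for Trpv6 and Trpv5. Trpv6 and Trpv5 encode the calcium-selective channels through which epithelia of gut and kidney take up calcium, and Trpv6 is regulated by sex steroids in the rodent uterus. They are neighbours on chromosome 6, Trpv6 from 41620619 to 41636405 and Trpv5 from 41651661 to 41681224, with a gap of 15.3 kb and no gene between. Their sequences are closely related, so some reads may have been shared or lost between them in counting. Trpv6 measured 27.1, 344, 319 and 25.9 CPM in deficient libraries, against 59.6, 132, 82.9 and 207 CPM in controls. Deficient libraries 2 and 3 were above every control, and deficient libraries 1 and 4 were below every control. The group means, 179 ± 176 CPM in deficient libraries and 120.3 ± 65.0 CPM in controls (SD, n = 4 each), did not differ beyond this spread, at a log2 difference of 0.57 ± 0.88 (SE) and an adjusted p of 0.703 in edgeR. Trpv5 showed the same split at a low level, with 0.235, 1.63, 1.80 and 0.164 CPM in deficient libraries against 0.358, 0.451, 0.506 and 1.03 CPM in controls. Its log2 difference was 0.71 ± 0.78 (SE), with an adjusted p of 0.589 in edgeR.

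The highest deficient value of Trpv6 was 13.3 times the lowest, against 3.47 times in the controls. Only 1.99% of all tested genes above 0 in every library were as wide among deficient libraries, and 5.23% among controls. The median of all such genes was 1.44 times in deficient libraries and 1.27 times in controls, and that of the 37 members was 2.01 and 1.56 times. Cacna2d3 (11.6 times in deficient libraries, 2.85 times in controls) and Trpv5 (11.0 and 2.87 times) were nearly as wide as Trpv6. So was Trpm5, a calcium-activated channel of taste cells named after its values were seen, at 10.9 times in deficient libraries and 3.40 times in controls. Trpm5 lay the other way, at 2.70, 0.267, 1.12 and 2.90 CPM in deficient libraries, lowest in libraries 2 and 3, against 2.65, 1.11, 3.79 and 2.26 CPM in controls.

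A pair of TRPM genes also divided the deficient libraries, Trpm4 and, chosen after its values were seen, Trpm6. Trpm6, the partner of Trpm7 that takes up magnesium in kidney and gut epithelia, measured 6.26, 19.7, 37.0 and 7.20 CPM in deficient libraries, against 18.9, 23.1, 22.7 and 50.5 CPM in controls. Deficient libraries 1 and 4 were below every control and the other 2 were inside the control range. The log2 difference was -0.71 ± 0.59 (SE), with an adjusted p of 0.472 in edgeR. Trpm4, a calcium-activated channel that carries sodium and depolarizes smooth muscle, measured 37.8, 77.3, 73.4 and 46.1 CPM in deficient libraries and 61.6, 54.2, 57.3 and 59.4 CPM in controls. Deficient libraries 2 and 3 lay above the narrow control range and deficient libraries 1 and 4 below it. The means were 58.7 ± 19.7 CPM in deficient libraries and 58.1 ± 3.13 CPM in controls (SD, n = 4 each), a log2 difference of 0.01 ± 0.22 (SE).

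S100g and Calb1, which encode calbindins that ferry calcium through epithelial cells, were looked at after their values were seen. S100g measured 138, 39.7, 74.0 and 146 CPM in deficient libraries, against 162, 229.7, 132 and 147 CPM in controls. Calb1 measured 171, 27.7, 36.5 and 116 CPM in deficient libraries and 63.9, 53.0, 81.6 and 10.1 CPM in controls. Both were lower in deficient libraries 2 and 3 than in deficient libraries 1 and 4, the reverse of Trpv6. Neither reached an unadjusted p under 0.05 between the groups in edgeR. The epithelial marker sum was high in the same deficient libraries as Trpv6, Trpv5 and Cacna2d3, but among controls it was lowest in library 4, where Trpv6, Trpv5 and Trpm6 were highest. Single markers were split in control library 4. Krt8, Krt18, Krt19, Cldn3, Cldn4 and Cldn7 had their lowest control value there, Epcam its highest, at 205 CPM, and Cdh1 a middle one, at 238 CPM. The part of epithelial content in the channel and calbindin values was not tested.

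**Figure D3:**
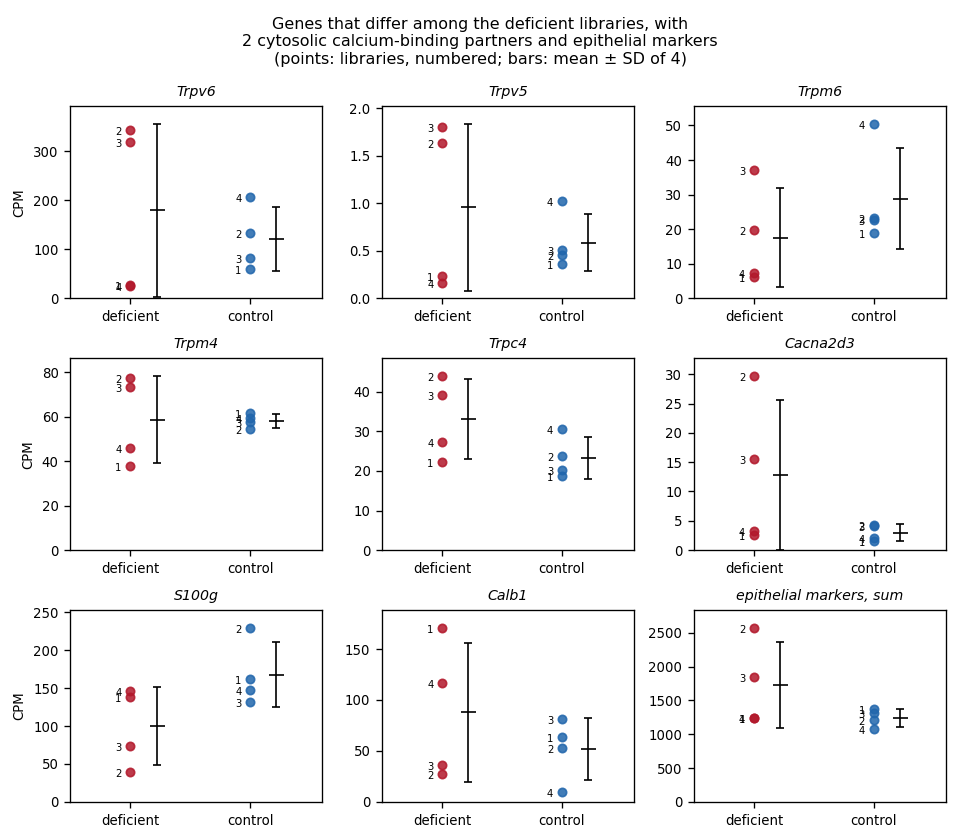
CPM (vertical axis, starting at 0) of 6 channel genes, the calbindin genes S100g and Calb1 and the sum of 8 epithelial markers in the 4 deficient libraries (left, red) and the 4 control libraries (right, blue). Points are numbered libraries and bars are mean ± SD; deficient libraries 2 and 3 stand above libraries 1 and 4 in every panel but S100g and Calb1, where they stand below.

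Deficient library 2 was an extreme for many members. It was the lowest of the 8 libraries for 18 of 37 members, 48.6%, against 28.1% of all tested genes. It was the highest for 8 members, 21.6%, against 28.6% of all genes. Earlier results of these data had set deficient libraries 2 and 3 apart, so the comparison was also made with deficient libraries 1 and 4 alone against the 4 controls. In edgeR 8 of 37 members then had an unadjusted p under 0.05, beside 18.4% of 18022 genes tested, and 0 had an adjusted p under 0.05. Of the 8, Cacna1d, Cacna1e, Cacnb2 and Trpm7 were among the 12 named above, and Trpm4, Trpm6, Trpv5 and Trpv6 were not. DESeq2, run on these 6 libraries after the data were seen, called Trpm4, Trpm6 and Trpv6, all lower, beside 8.44% of all genes.

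In that comparison Trpv6 had a log2 difference of -2.18 ± 0.51, Trpm6 of -2.09 ± 0.44, Trpv5 of -1.54 ± 0.54 and Trpm4 of -0.47 ± 0.10 (SE), with edgeR adjusted p from 0.135 to 0.215. These 4 values rest on 2 libraries, which were singled out after measurements of the same libraries. The lower level of Cacnb2 kept its size, at -0.53 ± 0.20 (SE) against -0.56 with all 8 libraries, and so did that of Trpm7, at -0.22 against -0.19. Cacna1d and Cacna1e were lower by less, at -0.37 ± 0.12 and -0.53 ± 0.17 (SE). Cacna1g stood at 0.67 ± 0.30 (SE), with an unadjusted p of 0.0619.

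**Figure D4:**
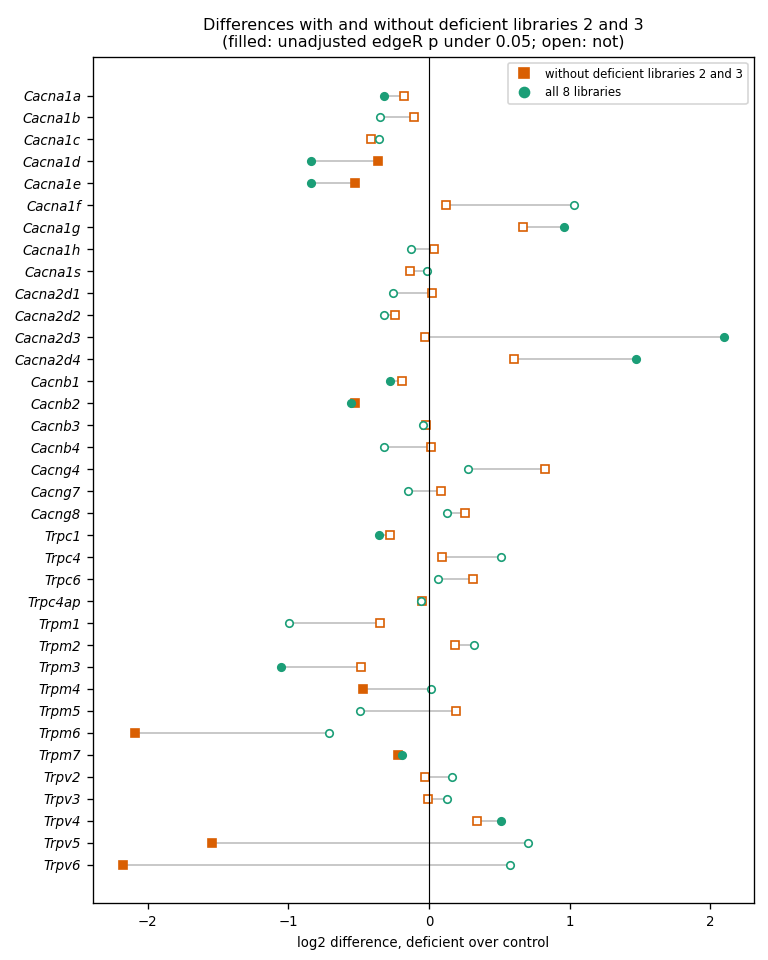
Log2 difference of deficient over control (horizontal axis, log2 units) for 36 of the 37 tested channel genes with all 8 libraries (circles) and without deficient libraries 2 and 3 (squares); filled symbols mark an unadjusted edgeR p under 0.05. Trpv6, Trpv5, Trpm6 and Cacna2d3 move the furthest, and Cacnb2, Trpm7 and Trpc4ap hardly move.

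The DESeq2 calls depended on single libraries. Leaving out 1 library at a time, after the data were seen, gave 7 member calls of 2457 in all without deficient library 1, 2 of 1531 without deficient library 2, 2 of 1703 without deficient library 3 and 11 of 3961 without deficient library 4. It gave 1 of 1328 without control library 1, 6 of 2059 without control library 2, 4 of 1751 without control library 3 and 1 of 927 without control library 4. The calls over all genes thus moved with the library left out as well, from 927 to 3961. Cacna1g was called in each of these fits but the last. The 6 members called with all libraries were called again, with no other, without control library 2, and among the 11 without deficient library 4. Under edgeR, the members at an unadjusted p under 0.05 numbered 12, 7, 10 and 12 without deficient libraries 1 to 4, and 6, 10, 7 and 8 without control libraries 1 to 4. Over all genes the counts were 4379, 3380, 3698 and 5471 without deficient libraries 1 to 4, and 3235, 3928, 3567 and 2896 without control libraries 1 to 4. Cacna1e, Cacna1g, Cacnb2 and Trpv4 were at that threshold in each of the 8 edgeR fits that left out 1 library.

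The heat map of the tested members shows how the libraries stand within each group. Deficient libraries 2 and 3 shared high Cacna2d3, Trpv5, Trpv6, Trpc4 and Trpm4 and low Trpm1, Trpm3 and Cacng7. Control library 4 had the highest control values of Cacna1c, Cacnb2, Trpc1, Trpm6, Trpv5 and Trpv6.

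**Figure D5:**
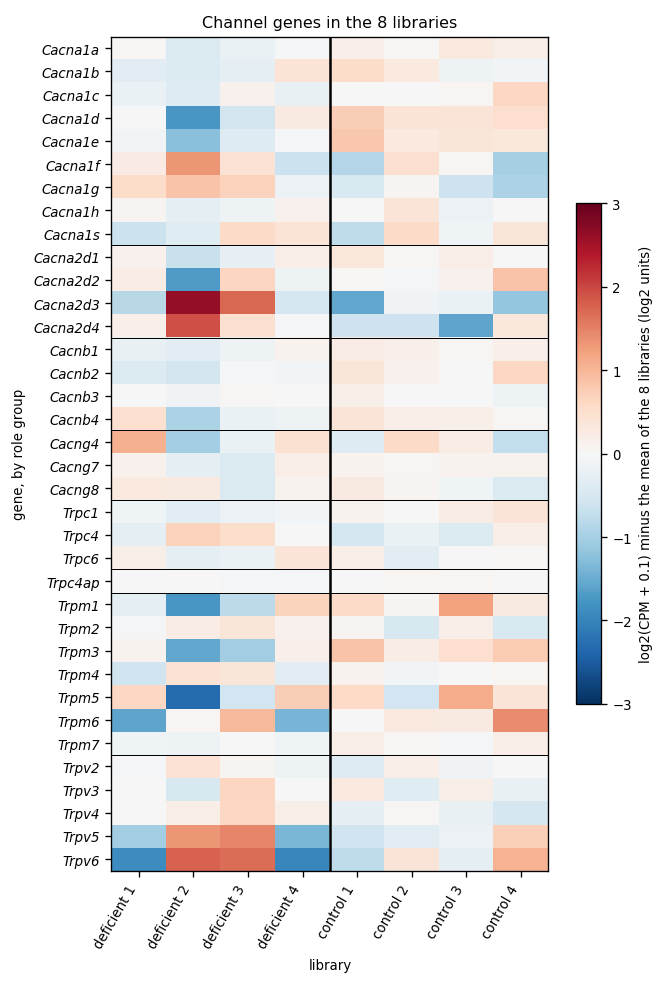
Log2 of CPM plus a pseudocount of 0.1, minus the mean of the 8 libraries, for 36 of the 37 tested channel genes (rows, by role group) in deficient libraries 1 to 4 (left) and control libraries 1 to 4 (right). Red is above and blue below each gene's mean; the deepest colours are those of Cacna2d3 and Trpm5 in deficient library 2.

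The 11 members under the low-count filter were Cacna1i, Cacng1, Cacng2, Cacng3, Cacng5, Cacng6, Trpc2, Trpc5, Trpc7, Trpm8 and Trpv1. These include a T-type pore, the cold-opened channel Trpm8 and the capsaicin-opened channel Trpv1, all best known from nerve cells. Their highest value was 13 reads, or 0.193 CPM, for Cacng2 in deficient library 2. Trpc2, the channel of the rodent vomeronasal organ, was at 0 in all 8 libraries, which allows up to 0.0445 CPM in a library (3 counts, for counting error only).

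The genes that work beside these channels, in a list of 52 chosen by role, were also mixed. Of 50 tested, 5 were higher and 13 lower in deficient libraries at an unadjusted p under 0.05 in edgeR, beside the 13.0% and 11.8% of all genes given above. In the same test 0 passed the adjusted threshold, and the median log2 difference was 0.04. DESeq2 called 4 of the 50, beside 14.2% of all genes, with Slc8a1, Gem and Camk2d lower and Mcoln2 higher. Slc8a1, the sodium-calcium exchanger that extrudes calcium after contraction, measured 92.4, 74.9, 129 and 145 CPM in deficient libraries, against 200, 183, 175 and 270.2 CPM in controls. Its groups did not overlap, and its log2 difference was -0.91 ± 0.23 (SE), with an adjusted p of 0.0987 in edgeR and 0.00415 in DESeq2. Gem, a small GTPase that binds beta subunits and silences voltage-gated calcium channels, measured 41.7, 31.5, 50.6 and 32.7 CPM in deficient libraries, against 71.4, 59.0, 60.4 and 81.5 CPM in controls. It too lay lower in each deficient library, as did Cacnb2, with a log2 difference of -0.80 ± 0.17 (SE) and an adjusted p of 0.0906 in edgeR and 0.0013 in DESeq2. Without deficient libraries 2 and 3 the log2 differences of Slc8a1 and Gem were -0.80 and -0.87. The other RGK-family brakes Rem1, Rem2 and Rrad did not reach an unadjusted p under 0.05.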

How the data were processed

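Total RNA of 8 mouse uterus libraries at pseudopregnancy day 6 was extracted with TRIzol, per the labels. Tools were HISAT2 2.2.1 and HTSeq 0.10.0 with build mm10, per the submitters' processing notes; no source used here gives their settings or strand. The authors deposited whole-number counts for 31269 symbols with no normalization, so reads of overlapping or closely related genes may be misassigned. All 48 members matched a RefSeq gene table of GRCm38.p6, used for coordinates. Its lengths are genomic spans, so levels were not set between genes.

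Genes were filtered with filterByExpr and scaled by TMM in edgeR 4.0.16 (R 4.3.3), and tested with glmQLFit and glmQLFTest with group as the only term over 17629 genes. The threshold was a Benjamini-Hochberg adjusted p of 0.05. SEs were taken from the difference and its F value. DESeq2 1.42.0, limma-voom (limma 3.58.1), other scalings and filters, a replicate block and left-out libraries were alternatives. The scripts were tested on simulated data. Every pair of libraries differed beyond counting noise (chi-square over degrees of freedom at least 46.5, the value for control libraries 1 and 3).

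The members and lists were chosen with earlier results of these data known. Members named with values were those past the adjusted threshold, those whose groups do not overlap, up to 3 with the smallest p and the 1 with the highest mean in each role group, and channels known in smooth muscle or uterus; of the partner list, those at an unadjusted p under 0.05 and Orai1, Stim1, Itpr1 and Kcnma1, most by their log2 difference alone. Total counts of 70296369 to 72364750 per library limit precision for counting error only. Values of 1 member are not reported here, though it stays in the counts.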

Additional observations from a re-analysis of the deposited data

Results flagged for a closer look

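A single library stood apart from the other 3 of its group for 5 named genes, by a gap to the nearest value that was large beside the group's whole range. Dixon's 95% critical value for 4 samples was used on 56 groups, and chance alone marks about 1 group in 20. Cacna2d4 was at 3.75 CPM in deficient library 2, with 1.29 CPM next. Trpm7 was at 119 CPM in deficient library 3, with 109 CPM next. Cacna1c was at 160.2 CPM in control library 4, with 109 CPM next. Cacna1e was at 22.2 CPM in control library 1, with 16.2 CPM next. Cacng7 was at 34.8 CPM in control library 2, the lowest of the controls, with 36.5 CPM next. What set these libraries apart was not tested.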

How the results depend on the processing

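Of 530 refits of the log2 differences of 28 named members, 491 kept their direction and their side of the adjusted threshold, 6 passed it (all under DESeq2), 0 lost it and 33 turned direction, in 13 genes. The cause of these turns was not tested. The count of all genes past the adjusted threshold was 0 in edgeR, 2488 in DESeq2, 2 in limma-voom, 3 with legacy=FALSE (added after seeing the data) and 0 to 2 on leaving out 1 library. All genes at an unadjusted p under 0.05 numbered 2896 to 5471 on leaving out 1 library, against 4372 with all, and members 6 to 12 against 12. Members past the adjusted threshold numbered 6 in DESeq2. DESeq2 without deficient libraries 2 and 3, added after seeing the data, called 1461 genes and 3 members.

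Trpm4, near 0 with all libraries, turned to -0.017 with upper quartile scaling, -0.041 with library totals and -0.055 with limma-voom. Trpv6 turned to -0.21 with limma-voom. Without deficient libraries 2 and 3, edgeR and DESeq2 gave log2 differences of -2.18 and -2.18 for Trpv6, -1.54 and -1.55 for Trpv5, -0.47 and -0.47 for Trpm4, -0.031 and -0.033 for Cacna2d3, 0.032 and 0.030 for Cacna1h, 0.018 and 0.016 for Cacna2d1, 0.011 and 0.0083 for Cacnb4, 0.085 and 0.083 for Cacng7, and -0.029 and -0.031 for Trpv2. On leaving out 1 library, Trpm4 ran from -0.15 to 0.17, Cacng4 from -0.15 to 0.55, Trpc6 from -0.074 to 0.16, Cacnb3 from -0.10 to 0.0077 and Cacng8 from -0.00053 to 0.27. Pgr ran from 0.09 to 0.25.

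With the replicate number as a block, 23 genes passed the adjusted threshold, 4338 genes and 11 members had an unadjusted p under 0.05, Trpm4 was at -0.050 and Trpv6 at -0.12, and no other named member changed direction or its side of the adjusted threshold. At the unadjusted threshold Cacna2d4 and Trpm7 no longer passed and Cacna1f did. The labels do not say that a number marks a shared litter or day. Deviations of same-numbered libraries correlated at 0.22, 0.29, -0.004 and -0.08, and only deficient libraries 1 and 2 correlated best with their own number, so the numbers were not taken as pairs. Genes such as Trpv5 and Trpm3, under 5 CPM in every library, and the 11 members under the filter are limited by depth.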

Other observations

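Among calcium handling genes outside the channel families, chosen by role with earlier results of these data known, Mcoln2, a lysosomal cation channel, had 6.16, 8.51, 7.25 and 5.28 CPM in deficient libraries, against 3.97, 3.88, 3.42 and 3.20 CPM in controls. Each deficient library was above each control, and the log2 difference was 0.91 ± 0.18 (SE), with an adjusted p of 0.0906 in edgeR and 0.000115 in DESeq2. It was 0.67 without deficient libraries 2 and 3. The related Mcoln1 differed by -0.23 ± 0.10 (SE, log2), lower in deficient libraries, with an adjusted p of 0.193 in edgeR. Immune marker genes, of which 6 were tested, summed to 414 to 549 CPM in deficient libraries and 315 to 397 CPM in controls, and their part in the Mcoln2 difference was not tested.

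Stim1 and Orai1 encode the sensor and the pore that refill calcium stores. Stim1 had 71.0, 52.6, 61.5 and 67.4 CPM in deficient libraries and 82.9, 74.6, 72.4 and 83.9 CPM in controls, and Orai1 had 17.4, 20.1, 20.6 and 17.2 CPM in deficient libraries and 16.6, 16.3, 16.3 and 17.0 CPM in controls. The groups did not overlap for either gene, Stim1 being lower and Orai1 higher in deficient libraries. The log2 differences were -0.31 ± 0.10 and 0.18 ± 0.09 (SE), with adjusted p of 0.126 and 0.239 in edgeR. Itpr1, a release channel of the stores, differed by -0.25 ± 0.09 (SE, log2), and Camk2d, a calcium-activated kinase, by -0.32 ± 0.09, with adjusted p of 0.158 and 0.102 in edgeR. DESeq2 called Camk2d alone of these 4, at an adjusted p of 0.0175. Kcnma1, the large-conductance potassium channel that calcium opens in uterine muscle, differed by 0.32 ± 0.23 (SE, log2), with an adjusted p of 0.415 in edgeR. Over the whole partner list, 4 genes lay above and 7 below the controls with no overlap, beside 7.61% and 8.66% of all genes.

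The other partner genes at an unadjusted p under 0.05 in edgeR had adjusted p between 0.134 and 0.19, and DESeq2 called 0 of them. Orai2, a store-operated pore, had a log2 difference of 0.47 ± 0.18 (SE), Calm3, a calmodulin gene, of 0.30 ± 0.10, Anxa2, which binds calcium and membranes, of 0.53 ± 0.19, and the potassium channel Kcnn4 of 1.52 ± 0.62, all higher in deficient libraries. Kcnn4 was at 4.71, 42.1, 19.0 and 7.17 CPM in deficient libraries and 6.16, 6.50, 7.60 and 5.16 CPM in controls. Deficient libraries 2 and 3 alone stood above every control, and deficient library 1 was below every control. The Kcnn4 difference was -0.09 without deficient libraries 2 and 3. Orai2, Calm3 and Anxa2 also differed by less without those libraries, at log2 differences of 0.14, 0.21 and 0.33. On the lower side were the store release channel Ryr3 (-0.36 ± 0.12), the calcium pump Atp2b4 (-0.26 ± 0.10), the channel adaptor Stac3 (-0.38 ± 0.16) and the polycystins Pkd1 (-0.32 ± 0.11) and Pkd2 (-0.29 ± 0.10). The small-conductance potassium channels Kcnn2 and Kcnn3 differed by -0.62 ± 0.23 and -0.61 ± 0.23 (SE, log2).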
